A study of Homo sapiens with 8 samples.

Results

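The genes described here are the transcription factors that drive epithelial to mesenchymal transition, ZEB1, ZEB2, SNAI1, SNAI2, TWIST1, TWIST2 and PRRX1, together with VIM and CDH2, the genes of the filament protein vimentin and of N-cadherin, which are read as its products. They are 9 of the 19775 genes named by the annotation and were found as every probe set annotated to exactly 1 of these symbols, 21 of the 54675 probe sets on the arrays. ZEB2 had 5 probe sets, ZEB1 had 4, PRRX1 had 3, and TWIST2, VIM and CDH2 had 2 each. SNAI1, SNAI2 and TWIST1 had 1 each. The genes lie on chromosome 10 (ZEB1 and VIM), 2 (ZEB2 and TWIST2), 20 (SNAI1), 8 (SNAI2), 7 (TWIST1), 1 (PRRX1) and 18 (CDH2). In an epithelial to mesenchymal transition, cells give up the junctions and polarity of an epithelium and become able to move. SNAI, ZEB and TWIST proteins act mainly as repressors of epithelial genes, the E-cadherin gene CDH1 among them, and PRRX1 is a homeobox factor of mesenchyme that can act with TWIST1. Human embryonic stem cells grow as an epithelium, and the mesoderm that gives rise to endothelium and blood forms through such a transition.

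The study followed the established human embryonic stem cell line H9 along differentiation toward blood. The 6 arrays of differentiated cells held cells sorted as positive for KDR, the main VEGF receptor of endothelium, and for CD31, an adhesion molecule encoded by PECAM1, with 2 arrays each on day 4, day 6 and day 8. The 2 arrays of day 0 held undifferentiated cells that were not sorted. All 8 came from the same line, which the labels describe as kept on layers of growth-arrested mouse embryonic fibroblasts before differentiation in a serum-free medium with BMP4. One label of day 6 replicate 2 and of both day 8 samples reads day 4, against their titles, descriptions and stages, which were followed here. Day and sorting changed together between day 0 and the other groups and cannot be told apart. The arrays of a group are called biological replicates, with no statement that they came from separate cultures, so the p-values measure only the spread between these arrays.

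Levels are given as log2(intensity + 32), where a probe set with no signal would read 5. Of the 54675 probe sets, 30343 lay above the median of the array on at least 2 of the 8 arrays and were tested, and 17 of the 21 member probe sets were among them. The fit was limma over all arrays at once, and a probe set was called at a Benjamini-Hochberg adjusted p under 0.05 over the 30343. Levels of different probe sets are not on a common scale and are not compared. The filter let ZEB1 239952_at and 210875_s_at and ZEB2 228333_at and 235593_at through only on sorted arrays, and PRRX1 238852_at only on replicate 1 of day 4 and of day 6. TWIST2 229404_at passed it on both day 0 arrays and 1 sorted array. Counts over the tested members are therefore descriptions. Genes of the lists given below met the same filter. ESRP1, OVOL2, GRHL3, PATJ, RAB25, CDH8, EOMES and SOX9 were above the median on day 0 arrays only, and CDH5 and ACVRL1 on sorted arrays only. Their calls, and the counts of the lists that hold them, are descriptions too.

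The median intensity lay between 88.8 and 93.3 on the 8 arrays. The sorted arrays carried all 10 genes of an endothelial marker list above the array median, with a summed intensity of 42257 to 59634, against 2 genes and 1361 to 1367 on day 0. KDR and PECAM1, whose proteins were used for the sort, are in this list, so it is not independent of the sort. The arrays of a day were close on day 0 (Pearson's r = 0.997 across probe sets, which are not independent replicates) and further apart on day 4 (0.935), day 6 (0.931) and day 8 (0.974). For GAPDH, a control of RNA integrity, signal from the 3' end over that from the 5' end was 2.15 to 3.73 on sorted arrays, against 1.71 and 1.91 on day 0, so it moved with every comparison against day 0, and its part in them was not tested. The ratio for ACTB was 19.0 and 31.0 on replicate 1 of day 4 and of day 6 and 8.92 to 16.0 on the other 6 arrays.

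ZEB1 and ZEB2 rose on day 4 and stayed high on day 6 and day 8, by 1.78 to 3.14 on the log2 scale for the probe sets with the highest signal. No other member passed the threshold on all 3 sorted days. SNAI2 213139_at, TWIST2 229404_at and PRRX1 226695_at lay below both day 0 arrays on all 6 sorted arrays, and VIM 201426_s_at lay above both. VIM 1555938_x_at lay below both, so the probe sets of VIM went opposite ways. The share of all probe sets that separate from day 0 in this way was not counted, so these separations are a description. Compared with day 0, day 4 had 6 member probe sets higher and 1 lower, which is 7 of 17 or 41.2%, against 14.4% of all probe sets tested (6.29% higher and 8.11% lower). Day 6 had 6 higher and 0 lower (35.3%, against 18.6% of all, 7.92% higher and 10.7% lower), and day 8 had 7 higher and 1 lower (47.1%, against 19.3% of all, 8.30% higher and the rest lower). The median change of the 17 was 0.30 on day 4, 0.14 on day 6 and 0.00 on day 8, beside 0.02, 0.01 and 0.00 over all probe sets tested. These comparisons share the day 0 arrays, so their counts are not independent of each other, and the probe sets of a gene are not independent either.

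**Figure D1:**
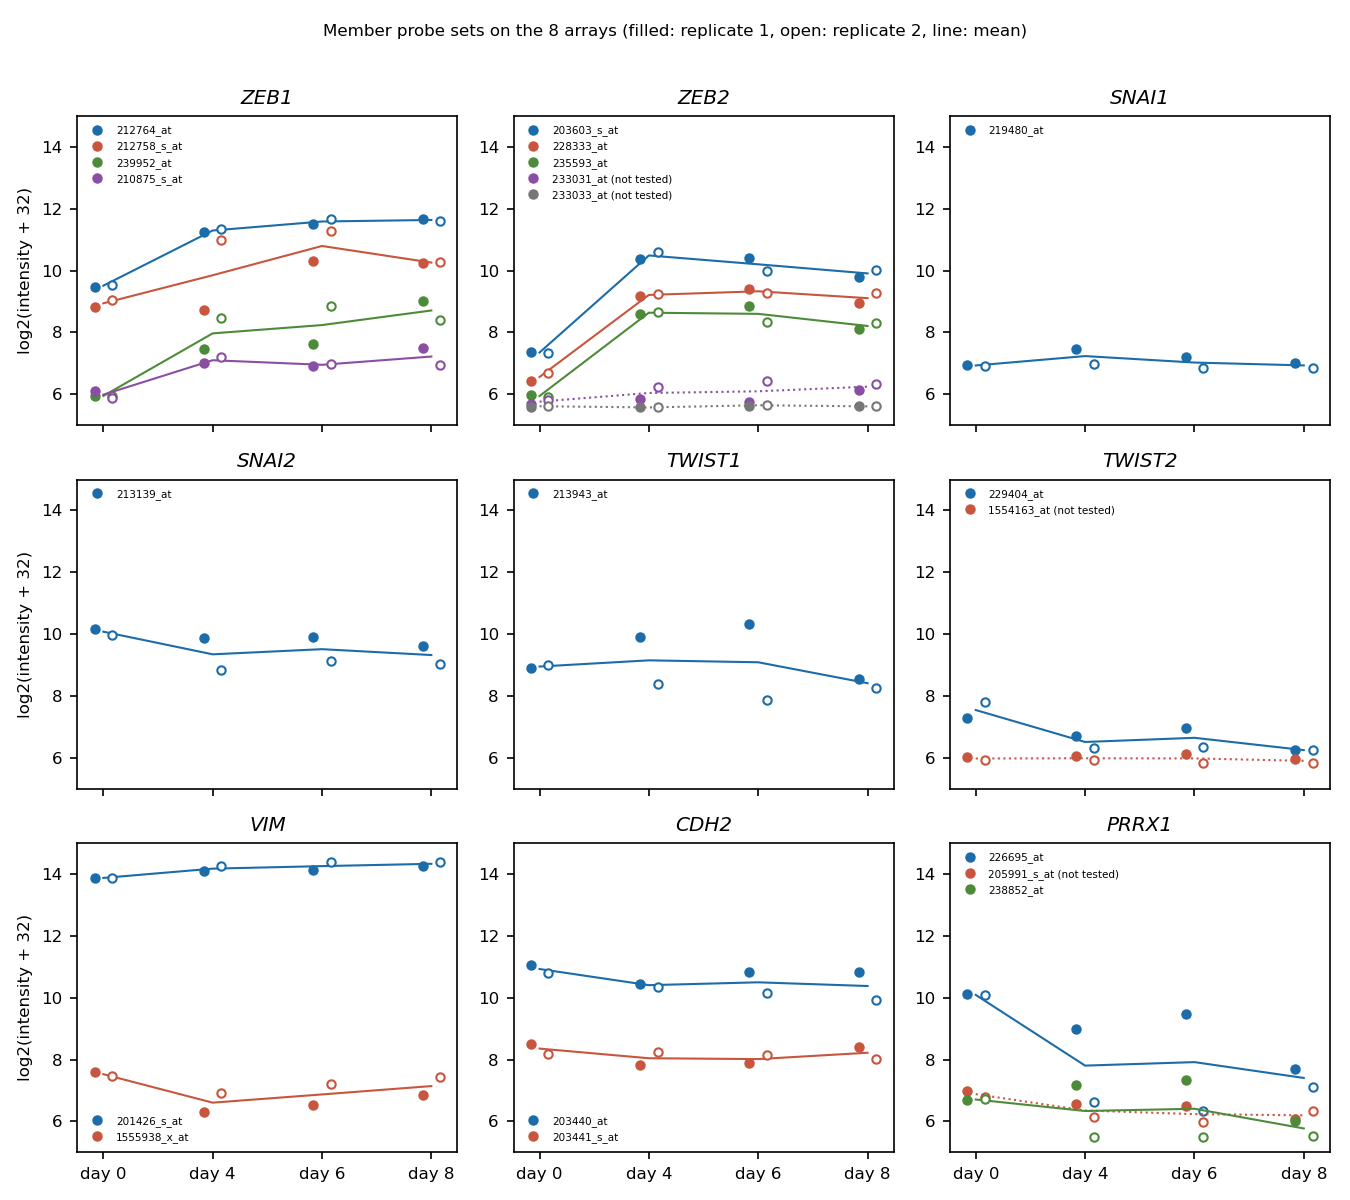
Level of the 21 member probe sets as log2(intensity + 32) by day, 1 panel per gene, with filled points for replicate 1, open points for replicate 2 and lines through the means of 2 arrays; dotted lines mark the 4 probe sets that were not tested. The ZEB1 and ZEB2 probe sets 212764_at and 203603_s_at lie above day 0 on all 6 sorted arrays, while TWIST1 213943_at and PRRX1 226695_at differ between the 2 arrays of day 4 and of day 6.

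ZEB1 and ZEB2 encode related repressors with zinc fingers and a homeodomain. SNAI, ZEB and TWIST proteins bind E-boxes, and the word CAGGTG, which reads CACCTG on the other strand, is the form bound by SNAI and ZEB proteins. The 250 bases before annotated gene starts (RefSeq, GRCh38.p14) were found for 6 of the 9 members, in 13 windows, and this word lay in 2 of them, both of ZEB1, against 17.5% of 35116 windows of all genes. The windows before the first start of ZEB1 and the start of ZEB2 are shown because these 2 genes rose together, with the word in capitals. It begins 57 bases before the ZEB1 start and is not found in the ZEB2 window.
ZEB1, chr10:31318167-31318416, plus strand: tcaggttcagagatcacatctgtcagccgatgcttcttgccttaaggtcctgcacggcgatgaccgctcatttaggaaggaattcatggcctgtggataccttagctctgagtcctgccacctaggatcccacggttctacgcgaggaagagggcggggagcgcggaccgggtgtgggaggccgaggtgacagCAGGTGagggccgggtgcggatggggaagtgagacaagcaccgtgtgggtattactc
ZEB2, chr2:144520120-144520369, minus strand: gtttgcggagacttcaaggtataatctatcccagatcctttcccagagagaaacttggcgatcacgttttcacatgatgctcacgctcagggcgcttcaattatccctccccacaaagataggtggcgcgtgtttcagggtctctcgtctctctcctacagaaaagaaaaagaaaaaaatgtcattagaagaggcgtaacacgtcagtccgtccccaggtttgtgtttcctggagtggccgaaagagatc
A match to these letters is a description and not a bound site.

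For ZEB1, probe set 212764_at read 9.48 and 9.55 on day 0, 11.24 and 11.35 on day 4, 11.51 and 11.67 on day 6, and 11.67 and 11.61 on day 8. All 6 sorted arrays lay above both day 0 arrays, and the arrays of a day differed by at most 0.16. The change against day 0 was 1.78 ± 0.16 (SE) on day 4, 2.08 ± 0.16 on day 6 and 2.13 ± 0.16 on day 8, which is 3.45-fold, 4.22-fold and 4.36-fold (limma, adjusted p = 0.000860, 0.000416 and 0.000387). Arrays of sorted cells cannot tell more transcript per cell from more cells that carry it. The call was kept on all 3 days when any 1 of the 8 arrays was left out.

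The other ZEB1 probe sets had more spread. Both 239952_at and 210875_s_at entered the test only through sorted arrays, where they are high, so their p-values are a description. Probe set 239952_at read 5.96 and 5.94 on day 0, 7.48 and 8.47 on day 4, 7.63 and 8.85 on day 6, and 9.01 and 8.41 on day 8. Its groups did not overlap with day 0, and replicate 1 was the lower array on day 4 and day 6. It was higher by 2.02 ± 0.48 on day 4, 2.29 ± 0.48 on day 6 and 2.76 ± 0.48 on day 8 (limma, adjusted p = 0.0362, 0.0199 and 0.0102, and 0.0450, 0.0242 and 0.0119 with no filter). The day 4 call was lost without either day 0 array, replicate 2 of day 4 or either day 8 array (adjusted p 0.0629 to 0.188). The day 6 call was lost without either day 0 array or replicate 2 of day 6 (0.0605 to 0.120), and the day 8 call without either day 0 array or replicate 1 of day 8 (0.0660 to 0.0770).

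Probe set 210875_s_at of ZEB1 read 6.11 and 5.87 on day 0, 7.00 and 7.21 on day 4, 6.91 and 7.00 on day 6, and 7.51 and 6.94 on day 8. No sorted array reached down to the day 0 arrays. The change was 1.11 ± 0.20 on day 4, 0.97 ± 0.20 on day 6 and 1.23 ± 0.20 on day 8 (limma, adjusted p = 0.0142, 0.0203 and 0.00856, and 0.0161, 0.0239 and 0.00963 with no filter). It missed the threshold on day 4 without either day 0 array or replicate 2 of day 4 (adjusted p 0.0568 to 0.121), on day 6 without any array of day 0 or day 6 (0.0514 to 0.151), and on day 8 without replicate 2 of day 0 (0.0793).

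Probe set 212758_s_at of ZEB1 did not pass in any comparison. It read 8.83 and 9.06 on day 0, 8.72 and 10.98 on day 4, 10.31 and 11.28 on day 6, and 10.25 and 10.27 on day 8. Replicate 1 of day 4 lay below both day 0 arrays while the other 5 sorted arrays lay above them. Its changes were 0.91 ± 0.70 on day 4, 1.85 ± 0.70 on day 6 and 1.32 ± 0.70 on day 8 (limma, adjusted p = 0.472, 0.121 and 0.239). When replicate 1 of day 4 alone was left out, the change on day 4 was 2.04 and all 3 days passed (adjusted p = 0.0322, 0.0154 and 0.0414). Without replicate 2 of day 4 in its place, day 6 and day 8 passed (0.0155 and 0.0416).

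ZEB2 showed the largest changes of the members that passed on day 4 and day 6, while ZEB1 239952_at had the largest on day 8. Probe set 203603_s_at read 7.36 and 7.35 on day 0, 10.38 and 10.60 on day 4, 10.42 and 9.99 on day 6, and 9.81 and 10.01 on day 8. The lowest sorted array stood more than 2 units above the higher day 0 array. The change was 3.14 ± 0.21 on day 4, 2.85 ± 0.21 on day 6 and 2.56 ± 0.21 on day 8, or 8.80-fold, 7.21-fold and 5.88-fold (limma, adjusted p = 0.000276, 0.000372 and 0.000585).

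A second ZEB2 probe set, 228333_at, read 6.43 and 6.70 on day 0, 9.20 and 9.23 on day 4, 9.40 and 9.26 on day 6, and 8.94 and 9.28 on day 8. Probe set 235593_at read 5.99 and 5.90 on day 0, 8.61 and 8.67 on day 4, 8.86 and 8.35 on day 6, and 8.11 and 8.31 on day 8. Neither overlapped with day 0 on any sorted array. The changes were 2.65, 2.77 and 2.55 (each ± 0.19) for 228333_at and 2.69, 2.66 and 2.26 (each ± 0.19) for 235593_at, on day 4, day 6 and day 8. These probe sets entered the test only through the sorted arrays, where they are high, so their adjusted p-values (limma, 0.000251 to 0.000658) are given as a description. With every probe set tested and no filter the adjusted p was 0.000279 to 0.000755. The calls of 203603_s_at, which was above the array median on all 8 arrays, were kept whichever 1 of them was left out. The remaining ZEB2 probe sets were below the array median on all 8 arrays and were not tested. Of these, 233031_at lay between 5.70 and 6.43 and 233033_at between 5.58 and 5.67, close to the value of no signal.

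**Figure D2:**
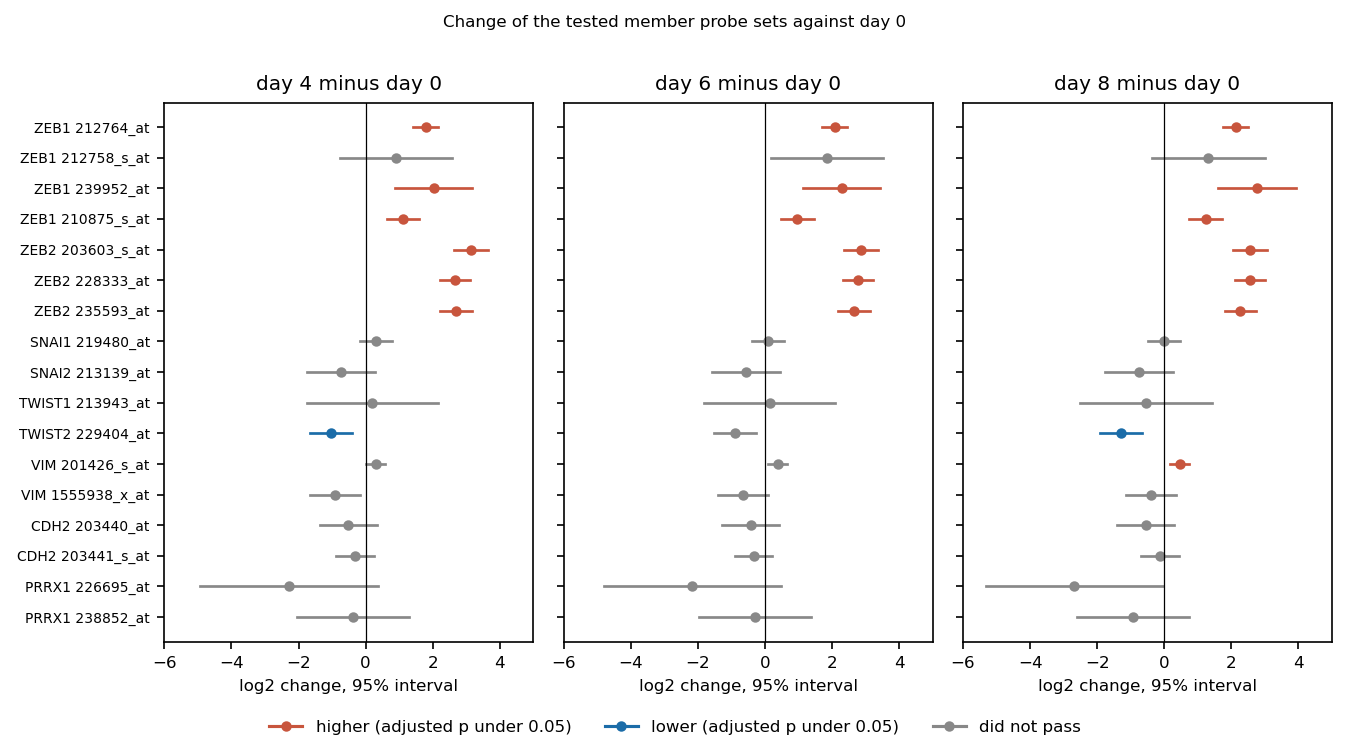
Change of the 17 tested member probe sets on the log2 scale (points) with 95% intervals of the fit (bars), for day 4, day 6 and day 8 minus day 0, coloured by whether the adjusted p was under 0.05. The ZEB2 probe sets lie between 2.26 and 3.14 on all 3 days, and the PRRX1 226695_at interval is wide, from -4.92 to 0.35 on day 4.

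SNAI1 and SNAI2 encode the zinc-finger repressors Snail and Slug, and neither passed in any comparison. SNAI1 219480_at read 6.94 and 6.93 on day 0, 7.48 and 6.99 on day 4, 7.21 and 6.85 on day 6, and 7.02 and 6.85 on day 8. Replicate 1 of day 4 was the highest array, and the other arrays lay within 0.36 of each other. The change was 0.30 (95% interval -0.17 to 0.78) on day 4, 0.09 (-0.38 to 0.57) on day 6 and 0.00 (-0.48 to 0.48) on day 8, with adjusted p = 0.394, 0.799 and 0.997 in limma. SNAI1 was near the array median, above it on 5 of 8 arrays.

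SNAI2 213139_at read 10.18 and 9.98 on day 0, 9.87 and 8.83 on day 4, 9.91 and 9.12 on day 6, and 9.61 and 9.04 on day 8. Every sorted array lay below both day 0 arrays, and replicate 1 was the higher array on each sorted day. The changes of -0.73 ± 0.43, -0.57 ± 0.43 and -0.76 ± 0.43 did not pass (limma, adjusted p = 0.332, 0.425 and 0.267). Their 95% intervals ran from -1.75 to 0.29 on day 4, from -1.59 to 0.45 on day 6 and from -1.78 to 0.26 on day 8.

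TWIST1 and TWIST2 encode closely related basic helix-loop-helix factors. TWIST1 213943_at read 8.89 and 9.02 on day 0, 9.92 and 8.39 on day 4, 10.33 and 7.86 on day 6, and 8.57 and 8.27 on day 8. On day 4 and day 6, replicate 1 lay above the day 0 arrays and replicate 2 below them. The means of these days therefore stood for no array, and the changes of 0.20 ± 0.82, 0.14 ± 0.82 and -0.54 ± 0.82 did not pass (limma, adjusted p = 0.910, 0.932 and 0.701).

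TWIST2 229404_at read 7.30 and 7.80 on day 0, 6.70 and 6.33 on day 4, 6.96 and 6.34 on day 6, and 6.25 and 6.26 on day 8. All sorted arrays lay below day 0. TWIST2 fell by 1.03 ± 0.26 on day 4 and by 1.29 ± 0.26 on day 8 (limma, adjusted p = 0.0441 and 0.0170), and its change on day 6 was -0.90 ± 0.26 (adjusted p = 0.0575). This probe set passed the filter through the day 0 arrays, where it is high, so these p-values are a description. With no filter the day 4 adjusted p was 0.0529 in limma. Leaving out any 1 array other than those of day 6 took the day 4 call away (adjusted p 0.0643 to 0.263). The day 8 call was lost without replicate 2 of day 0 or either day 8 array (0.0835 to 0.118). Its second probe set, 1554163_at, lay between 5.82 and 6.14 on all arrays and was not tested. The summed intensity of 10 fibroblast genes, all of which had a probe set, was 15320 to 27789 on day 4, 11797 to 22080 on day 6 and 13209 to 13276 on day 8, against 40969 to 41886 on day 0. All 10 were above the array median on day 0, and 7 to 9 of them on sorted arrays, where FAP lay between 5.69 and 5.90. Of the 10, 6 lay below day 0 on all 6 sorted arrays, while COL3A1, LUM, DCN and PDGFRA lay above both day 0 arrays on at least 2 sorted arrays, COL3A1 on 5. The part of fibroblast RNA, from feeder layers or from other cells, in the TWIST2 and SNAI2 values was not tested.

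PRRX1 226695_at had the largest mean difference of any member below day 0 and the largest spread. It read 10.11 and 10.08 on day 0, 8.99 and 6.62 on day 4, 9.49 and 6.35 on day 6, and 7.68 and 7.13 on day 8. Every sorted array lay below day 0, with replicate 2 of day 4 and of day 6 the lowest. The summed fibroblast intensity given with TWIST2 was higher on day 0 too, and its part in the PRRX1 values was not tested. The changes were -2.29 ± 1.10, -2.17 ± 1.10 and -2.68 ± 1.10, and none passed (limma, adjusted p = 0.242, 0.234 and 0.141). The day 8 change passed with the replicate number as a block (0.0419), with array weights per group (0.00361) and in a fit on day 8 and day 0 alone (0.000665).

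The second tested PRRX1 probe set, 238852_at, read 6.70 and 6.72 on day 0, 7.16 and 5.51 on day 4, 7.33 and 5.50 on day 6, and 6.01 and 5.54 on day 8. Replicate 1 of day 4 and of day 6 lay above day 0 and the other 4 sorted arrays below it. None of its changes (-0.37, -0.30 and -0.94, each ± 0.70) passed, with adjusted p = 0.786, 0.819 and 0.400 in limma. Probe set 205991_s_at, which was above the array median on 1 of 8 arrays and not tested, read 6.98 and 6.79 on day 0 and between 5.97 and 6.58 on the sorted arrays.

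VIM 201426_s_at read 13.88 and 13.87 on day 0, 14.10 and 14.25 on day 4, 14.13 and 14.39 on day 6, and 14.26 and 14.40 on day 8. The day 0 arrays were the 2 lowest of the 8. VIM rose by 0.46 ± 0.12 on day 8, a 1.37-fold change (limma, adjusted p = 0.0417), while the changes of 0.30 ± 0.12 on day 4 and 0.38 ± 0.12 on day 6 did not pass (0.161 and 0.0723). Without any 1 of the 4 arrays of day 0 and day 8, the day 8 call was lost (adjusted p 0.0952 to 0.217). The other VIM probe set went the other way and did not pass. With the replicate number as a block it passed as lower on day 4 (limma, adjusted p = 0.0317). It was 1555938_x_at, of a class of probe sets that may match other transcripts, and read 7.60 and 7.46 on day 0, 6.30 and 6.92 on day 4, 6.55 and 7.20 on day 6, and 6.86 and 7.43 on day 8. Its changes were -0.92, -0.65 and -0.38 (each ± 0.31), with adjusted p = 0.108, 0.207 and 0.439.

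CDH2 203440_at read 11.05 and 10.81 on day 0, 10.46 and 10.36 on day 4, 10.83 and 10.17 on day 6, and 10.84 and 9.92 on day 8. The day 6 and day 8 arrays overlapped with day 0. Probe set 203441_s_at of the same gene read 8.52 and 8.20 on day 0, 7.83 and 8.26 on day 4, 7.90 and 8.14 on day 6, and 8.42 and 8.02 on day 8, and overlapped with day 0 on day 4 and day 8. CDH2 passed in no comparison, with changes against day 0 of -0.55 to -0.43 for 203440_at and -0.34 to -0.13 for 203441_s_at (limma, adjusted p 0.330 to 0.743 over both).

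Among the sorted days, 0 of the 17 member probe sets passed for day 6 minus day 4, day 8 minus day 6 or day 8 minus day 4 in limma. This was 0.00% of members against 0.00% of all probe sets tested, in each of these comparisons. At an unadjusted p under 0.05 the counts over all probe sets were 1719, 625 and 1890, and over the members 0, 0 and 1. The member was ZEB2 203603_s_at, which averaged 9.91 ± 0.14 on day 8 and 10.49 ± 0.15 on day 4 (SD, n = 2 each), a difference of -0.58 with an adjusted p of 0.748. ZEB1 212764_at differed by 0.34 between day 8 and day 4 (95% interval -0.04 to 0.72, adjusted p = 0.748). For PRRX1 226695_at the interval of that difference ran from -3.04 to 2.24 and for TWIST1 from -2.70 to 1.22, so changes of several fold in either direction could not be told from the spread between arrays.

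The arrays of a day differed more for some member probe sets than for others, and in both directions. Replicate 1 minus replicate 2 of PRRX1 226695_at was 2.37 on day 4 and 3.14 on day 6, against 0.55 on day 8 and 0.03 on day 0. TWIST1 differed by 1.53 on day 4 and 2.47 on day 6, and by 0.30 on day 8 and -0.12 on day 0. SNAI2 differed by 1.04, 0.79 and 0.57 on day 4, day 6 and day 8, and ZEB1 212764_at and ZEB2 203603_s_at by no more than 0.43 on any day. Other ZEB1 probe sets were lower on replicate 1 of day 4 and day 6, with differences of -2.26 and -0.97 for 212758_s_at and -0.99 and -1.23 for 239952_at. VIM 1555938_x_at was lower there too (-0.62 and -0.66), and CDH2 203440_at was higher on replicate 1 of day 6 (0.67) and of day 8 (0.91). On day 8, the summed intensity of 6 neural ectoderm genes was 1365 on replicate 1 and 417 on replicate 2, with 5 and 2 above the median. For 8 macrophage and myeloid genes it was 3648 and 783, with 5 and 3 above the median. Of the 10 fibroblast genes, 8 stood higher on replicate 1 of day 4 and of day 6 than on the other 4 sorted arrays, and COL1A2 and POSTN did not. Among the 8, FAP exceeded them by little. LUM, the matrix proteoglycan lumican, read 11.41 and 10.64 on these 2 arrays and 7.81 to 9.93 on the other 4 sorted arrays. DCN, its relative decorin, read 8.41 and 8.16 against 6.27 to 7.22, and PDGFRA, a growth factor receptor of mesenchyme, 11.24 and 10.88 against 8.99 to 9.84. The summed intensity of all 10 fibroblast genes was 27789 and 22080 on these 2 arrays, against 11797 to 15320 on the other 4. A list of 8 yolk sac endoderm genes ran the other way, with a summed intensity of 3246 and 710 on these 2 arrays and 7401 to 25648 on the other 4, against 1134 to 1150 on day 0. Of its 8 genes, all with a probe set, 7 and 4 were above the median on these 2 arrays, 7 on each of the other 4 and 4 on each day 0 array, and APOA1 was below it throughout. The part of these differences and of the ACTB ratio in the PRRX1, TWIST1, SNAI2 and CDH2 values was not tested.

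**Figure D3:**
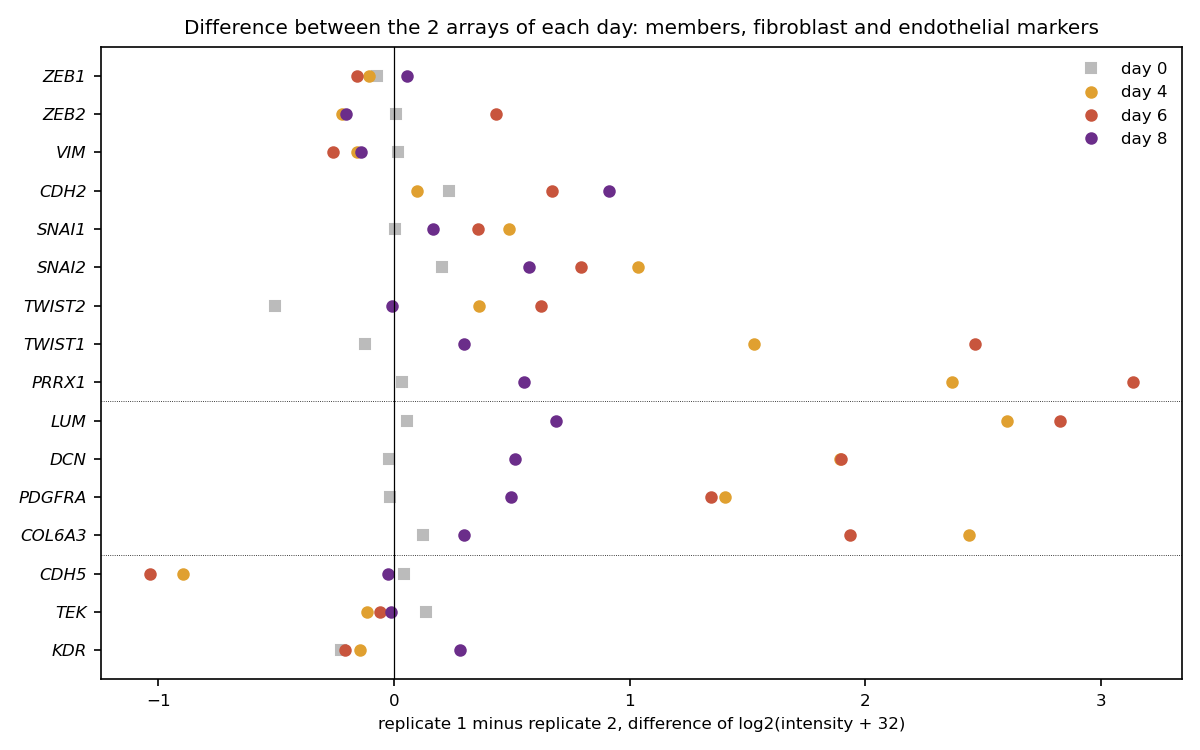
Replicate 1 minus replicate 2 of the same day, as a difference of log2(intensity + 32), for the brightest probe set of each member, 4 fibroblast genes and 3 endothelial genes, coloured by day. PRRX1 reaches 3.14 and TWIST1 2.47 on day 6, near LUM, and ZEB1, ZEB2 and VIM stay within 0.43 of zero; the day 4 point of DCN lies under its day 6 point.

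Because these 2 arrays stood apart, the fit was repeated without them, an alternative added once the values were known. The spread then rested on the day 0 and day 8 pairs, and the lone array of day 4 and of day 6 was assumed to vary like them. In that fit 12 of 17 member probe sets passed on day 4 (29.9% of all), 13 on day 6 (39.1% of all) and 13 on day 8 (43.7% of all), and 0 of 17 for day 8 minus day 4 (0.0461% of all). The changes of PRRX1 226695_at were -3.47 on day 4 and -3.74 on day 6 and those of SNAI2 -1.25 and -0.96, and all 4 passed (limma, adjusted p = 0.000872, 0.000626, 0.0225 and 0.0398). The change of TWIST1 on day 6 was -1.10 (adjusted p = 0.00811). Without replicate 2 of day 4 and of day 6 in their place, TWIST1 was higher by 0.97 on day 4 and 1.37 on day 6 (adjusted p = 0.0146 and 0.00510), so its direction turned on which arrays were kept. Then 11 of 17 passed on day 4 (33.0% of all), 9 on day 6 (34.0% of all) and 13 on day 8 (43.8% of all). Among sorted days 4 passed for day 8 minus day 6 (13.8% of all) and 6 for day 8 minus day 4 (20.0% of all). ZEB1 212764_at and the 3 tested ZEB2 probe sets were higher than on day 0 on all 3 days in both fits.

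Most of the tested factors that oppose the transition fell on each sorted day. Of 8 tested factors that hold epithelial identity, 6 were lower on day 4, 7 on day 6 and 7 on day 8, and 0 were higher, with median changes of -0.90, -1.09 and -1.18, beside 14.4%, 18.6% and 19.3% of all probe sets called in either direction. Over all genes tested the medians lay between -0.03 and 0.02. ESRP1, a splicing factor of epithelia whose gene ZEB1 represses, read 11.97 and 11.98 on day 0 and between 6.16 and 6.79 on the sorted arrays, with no overlap. It fell on all 3 days (-5.20, -5.61 and -5.60; limma, adjusted p at most 3.03e-05). OVOL2, a repressor of ZEB1 in epithelia, fell on all 3 days as well (-1.31, -1.64 and -1.52). ESRP1, OVOL2 and GRHL3, another factor of this list, entered the test only through the day 0 arrays, where they are high, so their calls are a description. Of the same list only KLF4 on all 3 days and OVOL1 on day 4 did not pass. Without replicate 1 of day 4 and of day 6, 7, 8 and 8 of the 8 were lower (29.9%, 39.1% and 43.7% of all called).

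CDH1, the gene of E-cadherin, read 13.00 and 12.84 on day 0, 8.18 and 8.06 on day 4, 7.46 and 7.55 on day 6, and 8.45 and 7.66 on day 8. The sorted arrays lay more than 4 units below day 0. CDH1 fell on all 3 days, with changes of -4.80 ± 0.27, -5.42 ± 0.27 and -4.87 ± 0.27 (limma, adjusted p = 0.000135, 8.08e-05 and 0.000123). Of 22 tested epithelial genes 11 were lower on day 4, 13 on day 6 and 14 on day 8, with medians of -0.98, -1.34 and -1.35 (against the same 14.4%, 18.6% and 19.3% of all), and among them PATJ, a polarity protein, fell by 3.31 on day 8 and RAB25, a small GTPase of epithelial recycling, fell by 2.51 on day 6. The genes that rose were TJP1 and, on day 6 and day 8, JUP, which encode the junction proteins ZO-1 and plakoglobin found in epithelium and endothelium alike. TJP1 rose by 0.91, 1.04 and 1.07, and JUP by 2.20 on day 6 and 1.82 on day 8. JUP was named after its values were seen.

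Among 11 tested cadherin genes, CDH2 is the member, and 1 was higher on each sorted day while 4, 3 and 3 were lower (medians -0.40, -0.24 and -0.29, with 14.4%, 18.6% and 19.3% of all probe sets called). The genes that fell on all 3 days were CDH1, CDH3 (P-cadherin, with changes of -3.94, -4.28 and -3.69) and CDH8 (-1.61, -1.57 and -1.63). CDH5, the cadherin of endothelial junctions, read 5.73 and 5.69 on day 0 and between 12.23 and 13.26 on the sorted arrays, with the lowest values on replicate 1 of day 4 and of day 6. It rose by 6.99, 7.04 and 7.35 (limma, adjusted p at most 0.000152). CDH5 entered the test only through sorted arrays, where it is high, so these p-values are a description. CDH11, the cadherin of mesenchyme, read 8.67 and 8.56 on day 0 and 7.99 to 8.76 on the sorted arrays, which overlapped, and did not pass. CDH11 was named after its values were seen.

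**Figure D4:**
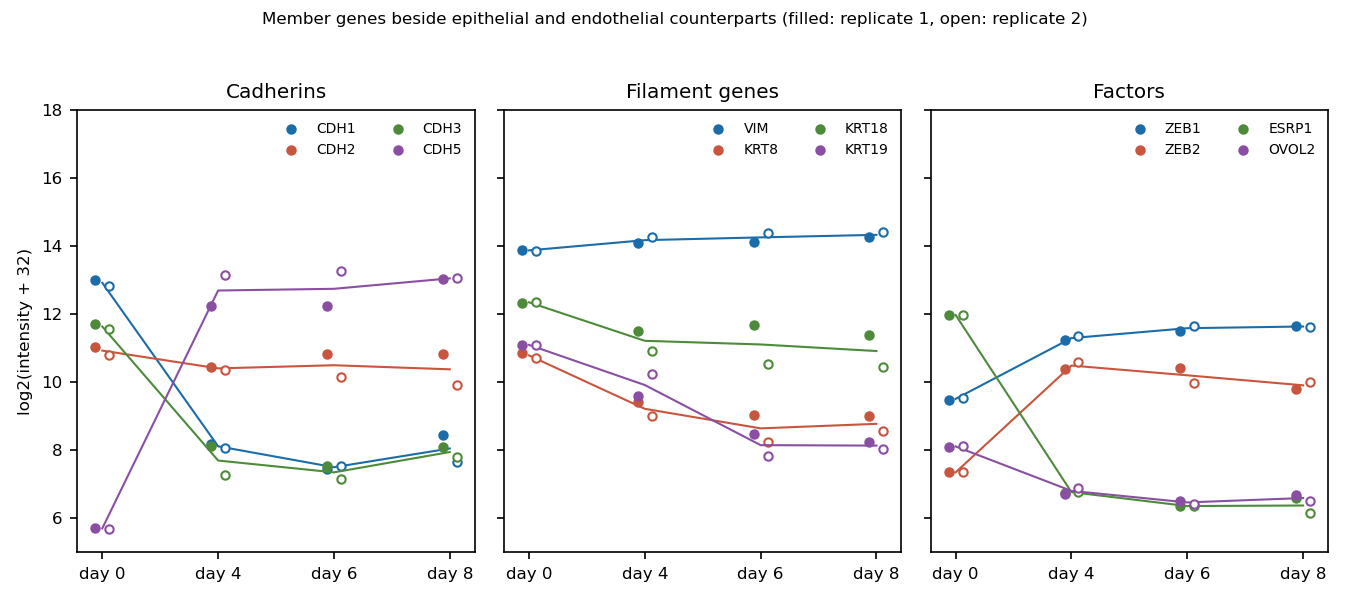
Levels of CDH2, VIM, ZEB1 and ZEB2 as log2(intensity + 32) by day beside cadherin, keratin and epithelial factor genes, with filled points for replicate 1, open points for replicate 2 and lines through the means. CDH1, CDH3, ESRP1 and OVOL2 fall below their day 0 arrays on all 6 sorted arrays, CDH5, ZEB1 and ZEB2 lie above theirs, and CDH2 overlaps with day 0 on day 6 and day 8; heights of different genes are not on a common scale.

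The mesenchymal effector genes did not move in a single direction. Of 24 tested, 3 were higher and 5 lower on day 4, 1 and 6 on day 6, and 4 and 6 on day 8, with medians of -0.14, -0.19 and -0.17, beside the same 14.4%, 18.6% and 19.3% of all probe sets called. In the fit that left out replicate 1 of day 4 and of day 6 the counts were 6 and 8, 3 and 11, and 4 and 9, beside 29.9%, 39.1% and 43.7% of all. TNC, the matrix protein tenascin C, fell on all 3 days (-2.80, -3.26 and -3.37), as did COL1A2, a collagen chain (-1.16, -1.08 and -1.90). ITGA5, a subunit of the fibronectin receptor, rose by 1.86, 2.03 and 2.25. FN1, the fibronectin gene, read 13.76 and 13.84 on day 0 and 12.92 to 13.52 on the sorted arrays, and its changes of -0.58, -0.47 and -0.47 did not pass (limma, adjusted p = 0.126, 0.181 and 0.170). FN1 was named after its values were seen. COL1A1, COL1A2, COL3A1, LUM, DCN and POSTN belong to the fibroblast list as well, so the feeder or fibroblast signal given with TWIST2 bears on the same genes, and its part was not tested.

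Other regulators of the transition changed in both directions. Of 17 tested, 1 was higher and 2 lower on day 4, 3 and 3 on day 6, and 2 and 2 on day 8 (medians 0.13, 0.10 and 0.11), beside 14.4%, 18.6% and 19.3% of all probe sets called. EOMES, a T-box factor of early mesendoderm, fell on all 3 days (-1.86, -1.95 and -1.79), and so did SOX9 (-1.31, -1.20 and -1.17). LEF1, a partner of beta-catenin, rose by 1.67, 1.49 and 1.88, and TCF4, the E-protein that pairs with TWIST factors, by 1.54 on day 6 and 1.68 on day 8 (adjusted p = 0.00948 and 0.00704). Of 16 tested TGF-beta genes, whose signals induce SNAI and ZEB genes in many epithelia, 3 were higher and 1 lower on day 4, 4 and 3 on day 6, and 5 and 3 on day 8 (medians 0.05, -0.01 and -0.14, against the same background). The receptor genes ACVRL1, TGFBR3 and TGFBR2 rose on all 3 days, by 3.72 to 4.28, 3.50 to 4.11 and 1.71 to 2.33, and the ligand gene TGFB2 fell (-1.14, -1.57 and -1.31).

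Across the 8 arrays, the genes whose brightest tested probe set followed each member most closely were ranked by Pearson's r among 13817 genes, as a description. All points share the split between day 0 and sorted arrays, and none of the values carries a p. ZEB1 was followed by BAIAP2-DT (0.998), TJP1 (0.998) and GATA2 (0.997), and ZEB2 by CPNE8 (0.994), RPS6KA3 (0.994) and THBD (0.992). VIM was followed by ASAP1 (0.995), KCTD15 (0.992) and ENG (0.992). The genes nearest TWIST1 were MSMO1 (0.996), KIF18B (0.991) and CDK1 (0.989), and those nearest PRRX1 were TTF2 (0.995), H4C11 (0.991) and ZGRF1 (0.990). For SNAI2 they were NAA25 (0.995), CNOT1 (0.983) and CCDC51 (0.982), for SNAI1 CNIH1 (0.981), MRPL40 (0.979) and IFT56 (0.978), for TWIST2 ZNF530 (0.991), TFB1M (0.980) and FAM161A (0.976), and for CDH2 SON (0.984), FAM120C (0.974) and PIAS4 (0.971). Between ZEB1 and ZEB2 themselves r was 0.943 over the 8 arrays and -0.829 over the 6 sorted arrays, where the mean of ZEB1 was highest and that of ZEB2 lowest on day 8.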

How the data were processed

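Expression was measured on 8 Affymetrix arrays, 2 in each of 4 groups, and grouped by the sample titles, with which 1 other label disagrees for 3 samples. The deposited values are intensities on a linear scale, 1 for each probe set of an array, with similar medians on all arrays. The authors used MAS5, per the submitters' processing notes; its version and scaling, and a genome build, are not given in the sources used here. Deposited intensities were used without further scaling and transformed as log2(intensity + 32), a log2 scale on which folds of dim probe sets are understated. Of 54675 probe sets, 41091 carried a single symbol in the platform annotation, 1801 carried several and 11721 carried no symbol, while the 62 controls were not tested. By gene ID 41037 were found in a RefSeq gene table, which changed 0 symbols. Probe sets that carried several symbols stood for no gene here.

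Probe sets that exceeded the median of their array on 2 or more of the 8 arrays were fitted with limma 3.58.1 in R 4.3.3, in 1 fit with a term per group, eBayes with trend (4 residual and 2.58 prior degrees of freedom), two-sided tests and Benjamini-Hochberg adjustment over 30343 probe sets, for 6 comparisons. The script was tested on simulated data. The named genes were every member probe set, up to 4 genes with the smallest p per list and comparison, set landmarks such as CDH1 and CDH5, and the 3 genes closest to each member. A gene of a list was read by its probe set of highest mean. Counts of a list thus rest on 1 probe set per gene, while the shares beside them are over all probe sets tested. The members and lists were chosen with earlier results of these data known. Replicate numbers were used as a block only as an alternative, since replicate differences correlated between days 4, 6 and 8 (r 0.36 to 0.61) and not with day 0 (-0.02 to 0.04). Other alternatives were an offset of 1 or 128, other filters, scalings, variance models and gene summaries, the arrays of the groups compared or of sorted cells alone, and each array left out. The number of arrays limits the precision, and for dim probe sets signal near background does too. Plots used matplotlib 3.10.9 in Python 3.11.15.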

Additional observations from a re-analysis of the deposited data

How the results depend on the processing

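The counts of member probe sets called against day 0 (7, 6 and 8 of 17 on day 4, day 6 and day 8) were 4 to 7, 4 to 8 and 4 to 9 when each array was left out in turn, and the 3 counts among sorted days were 0 to 0. With 1 probe set per gene 3, 3 and 4 of 9 genes passed, and with the mean of the probe sets of a gene 3, 3 and 3, where VIM on day 8 no longer passed (adjusted p = 0.933); these settings hold fewer tests by construction. In a fit on the groups compared alone, day 8 minus day 0 gave 13 calls, where PRRX1, TWIST1 and SNAI2 passed as lower and ZEB1 212758_s_at as higher. The share of all probe sets called in that fit was not counted, so these calls cannot be set against it. The spread of that fit rests on the arrays of day 0 and day 8, which were closer to each other than those of day 4 and day 6. With the replicate number as a block, 8, 8 and 9 passed against day 0 and 0, 0 and 0 among sorted days. Shares of all probe sets called were not counted for the block, for single arrays left out or for the gene summaries. The member counts in those settings therefore have no background beside them. The block added VIM 1555938_x_at on day 4 and PRRX1 226695_at on day 8, both lower than day 0. It also added VIM 201426_s_at and ZEB1 212758_s_at on day 6, both higher (limma, adjusted p 0.0317 to 0.0491 over these calls). The probe sets of VIM thus passed in opposite directions. The samples share only a number, and the pairing was not shown for day 0.

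Without replicate 1 of day 4 and of day 6 the counts were 12, 13 and 13, and TWIST1 on day 6 turned to -1.10 on the log2 scale. Without replicate 2 of these days they were 11 on day 4 and 13 on day 8, and among sorted days 4 for day 8 minus day 6 (13.8% of all) and 6 for day 8 minus day 4 (20.0% of all). TWIST2 on day 4 missed the threshold with an offset of 1, no filter, median centring, no variance trend, array weights or only the groups compared (adjusted p 0.0529 to 0.101), and VIM on day 8 with no filter or no variance trend (0.0692 and 0.0819); the cause was not tested. Signal near background limits SNAI1, TWIST2 and the dim probe sets of ZEB1 and ZEB2, and 2 arrays a group limit all intervals.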

Other observations

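Cofactors and regulators of SNAI, ZEB and TWIST proteins were measured for 18 of 19 genes, all tested. Against day 0, 1 was higher and 1 lower on day 4, 1 and 2 on day 6, and 0 and 2 on day 8 (medians -0.10, -0.08 and -0.19), beside 14.4%, 18.6% and 19.3% of all probe sets called. ID4 and ID1, inhibitors that keep helix-loop-helix factors from binding DNA, gave the lower calls. ID4 read 11.22 and 11.21 on day 0, 8.57 and 8.06 on day 4, 8.94 and 7.43 on day 6, and 8.39 and 7.04 on day 8, and fell on all 3 days (-2.89, -3.03 and -3.50; limma, adjusted p = 0.0218, 0.0158 and 0.00943). ID1 read 9.59 and 11.83 on the day 4 arrays, which differ widely, and passed with changes of -3.43 on day 6 and -2.90 on day 8. ID3 rose by 1.46 on day 4 (adjusted p = 0.0135), and FBXL14, a ubiquitin ligase subunit for SNAI1, by 0.88 on day 6 (adjusted p = 0.0456). The corepressor genes CTBP1 and CTBP2 and the deacetylase genes HDAC1 and HDAC2 did not pass in any comparison.

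The 17 intermediate filament genes around VIM gave 1 higher and 4 lower on day 4, 1 and 5 on day 6, and 2 and 5 on day 8 (medians -0.41, -0.56 and -0.50), against the same background. INA and NEFL, which encode filaments of neurons, fell on all 3 days (-2.55, -2.24 and -2.30 for INA and -3.04, -2.80 and -2.35 for NEFL). The keratin genes KRT8 (-1.57, -2.14 and -2.01) and KRT19 (-1.18, -2.95 and -2.96) fell as well. NEFH, the heavy neurofilament gene, went the other way. It read 8.39 and 8.41 on day 0 and between 10.54 and 12.98 on the sorted arrays, highest on replicate 1 of day 6, and rose by 2.40, 3.58 and 2.60 (limma, adjusted p = 0.0407, 0.00828 and 0.0257).

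ZEB1-AS1, a noncoding gene beside ZEB1 that was named after its values were seen, read 6.68 and 7.08 on day 0 and 7.34 to 7.80 on the sorted arrays. It was higher by 0.78 ± 0.21 on day 6 and on day 8 (limma, adjusted p = 0.0495 and 0.0484), with a change of 0.68 on day 4 that did not pass (0.0890).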
